A study of Mus musculus with 10 samples.

Results

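Of the 48 genes listed for glutathione, thioredoxin and antioxidant defense, 45 were measured, out of 18193 genes that the arrays named, in 5 lovastatin-treated (Lov) and 5 vehicle-treated (Vhcl) mammary tumors. A gene was represented by the probe set annotated to it alone that had the highest mean log2 signal over the 10 tumors. The genes came from a list drawn up by function, chosen with earlier results of these data known. Prdx1 was read only by 5 probe sets that are annotated to a further gene as well, and Prdx5 and Prdx6 had no probe set with their name in the annotation used here, so these 3 peroxiredoxins have no value. The 45 genes comprised 16 glutathione transferases, 6 glutathione peroxidases, 3 peroxiredoxins, 6 genes of the thioredoxin system, 4 of glutathione synthesis and recycling, 5 regulators and targets of the transcription factor Nrf2, catalase with 2 superoxide dismutases, and 2 metallothioneins.

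The tumors arose spontaneously in female FVB/N-Tg(MMTVneu) mice (Tg-neu), in which the mouse mammary tumor virus promoter drives the neu oncogene, and this transgene was common to both groups. Lov mice had received lovastatin, an inhibitor of the mevalonate pathway, by intraperitoneal injection at 10 mg/kg 3 times per week for 6 weeks from the onset of the first tumor. Vhcl mice had received ethanol on that schedule. The labels describe 5 mice per group and do not say which tumor came from which mouse, a free-text field calls the control tumors not treated, and no age is given. Tumors Lov A19, A48, A50, A55 and AB10 and tumors Vhcl A45, A49, A54, A59 and AB11 were each hybridized to an Affymetrix MG430 v2.0 whole-genome array. Each array held RNA of a whole tumor, so fewer cells of a type cannot be told apart from less RNA per cell in any difference given here.

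Glutathione is the main small thiol of the cell. Glutathione transferases attach it to reactive electrophiles, glutathione peroxidases use it to reduce peroxides, and peroxiredoxins reduce peroxides with electrons that pass from NADPH through thioredoxin reductase and thioredoxin. Nrf2, held in check by Keap1, induces many of these genes through antioxidant response elements, whereas metallothioneins are small cysteine-rich proteins that bind zinc and copper and are induced by metals, glucocorticoids and oxidants. These systems protect growing tumors from peroxides and from drugs that are cleared as glutathione conjugates.

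The epithelial genes Krt8, Krt18 and Epcam gave log2 signals of 11.60 or more in all 10 tumors, whereas Krt19 was at 4.67 to 4.95 in Lov and 4.27 to 8.24 in Vhcl tumors. The medians of the arrays were 4.97 to 5.05, and the 3 liver markers Alb, Apoa1 and Ttr, which come from an organ rich in transferases, stayed at 3.59 to 5.85. Some tumors held transcripts of neighboring tissues. The summed level of 5 salivary gland markers, on the log2 scale, was 5.94 to 8.75 in Lov tumors and 7.21 to 15.2 in Vhcl tumors, highest in Vhcl AB11 (15.2) and then in Vhcl A59 (11.1). 2 of these 5 markers, Prol1 and Dcpp1, were lower in Lov tumors at an unadjusted p under 0.05, as were 2.75% of all genes. S100a9 among 3 measured neutrophil markers was lower too, but its means of 3.66 in Lov and 3.99 in Vhcl lie below the medians of the arrays. The other neutrophil markers, S100a8 and Csf3r, had log2 differences (Lov minus Vhcl) of -0.70 and 0.10 and did not pass that threshold. The summed level of 4 skeletal muscle markers was 6.54 to 11.1 in Lov tumors and 6.38 to 11.4 in Vhcl tumors, and it was high in Lov A55 (11.1), Vhcl A54 (11.2) and Vhcl A59 (11.4). 1 of 6 macrophage markers, Csf1r, and 1 of 4 T cell markers, Cd3g, were higher in Lov tumors at that threshold, as were 3.5% of all genes. The other T cell markers, Cd3e, Cd4 and Cd8a, had log2 differences of 0.07, 0.01 and -0.07. Cd3g was dim, with means of 5.13 in Lov and 4.62 in Vhcl. The part of these tissues in the antioxidant results was not tested beyond the fits without the tumors concerned that are given below.

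No antioxidant gene passed a false discovery rate (FDR) of 0.05 in the limma comparison of Lov with Vhcl, in which 0 of 45037 probe sets passed (0%), and the lowest adjusted p among the 45 genes was 0.919. At an unadjusted limma p under 0.05, 6 of the 45 genes (13.3%) were lower in Lov tumors, against 2.75% of all genes, and 1 (2.22%) was higher, against 3.5% of all genes. The 6 were the transferases Gsta4, Gstm2, Gstk1 and Mgst2, the heme oxygenase Hmox1 and the metallothionein Mt1, and the gene that was higher was Txnip, which encodes an inhibitor of thioredoxin. Gstm2 and Hmox1 were also at least 2-fold lower with p under 0.02, a combination met by 0.264% of all genes. The Lov and Vhcl values overlapped for all 45 genes, whereas 0.346% of all genes had every Lov tumor below every Vhcl tumor and 0.346% had every Lov tumor above. The log2 difference (Lov minus Vhcl) was negative for 33 of the 45 genes and for 49.3% of all genes, and its median was -0.08 over the 45 genes and 0.00 over all genes. Of the 45 genes, 40 had a mean signal above the median of all genes, and the shares of all genes were not matched for signal. Without Lov A55, Vhcl A54 and Vhcl A59, the tumors with muscle transcripts, only Gsta4, Gstm2 and Hmox1 were lower at that p and no gene was higher. Without Vhcl A59 and AB11, the tumors richest in salivary transcripts, 7 genes were lower, Mt1 and Gstk1 no longer among them, and 0 were higher. The share of all genes called was not counted in these fits, so these counts have no background.

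**Figure D1:**
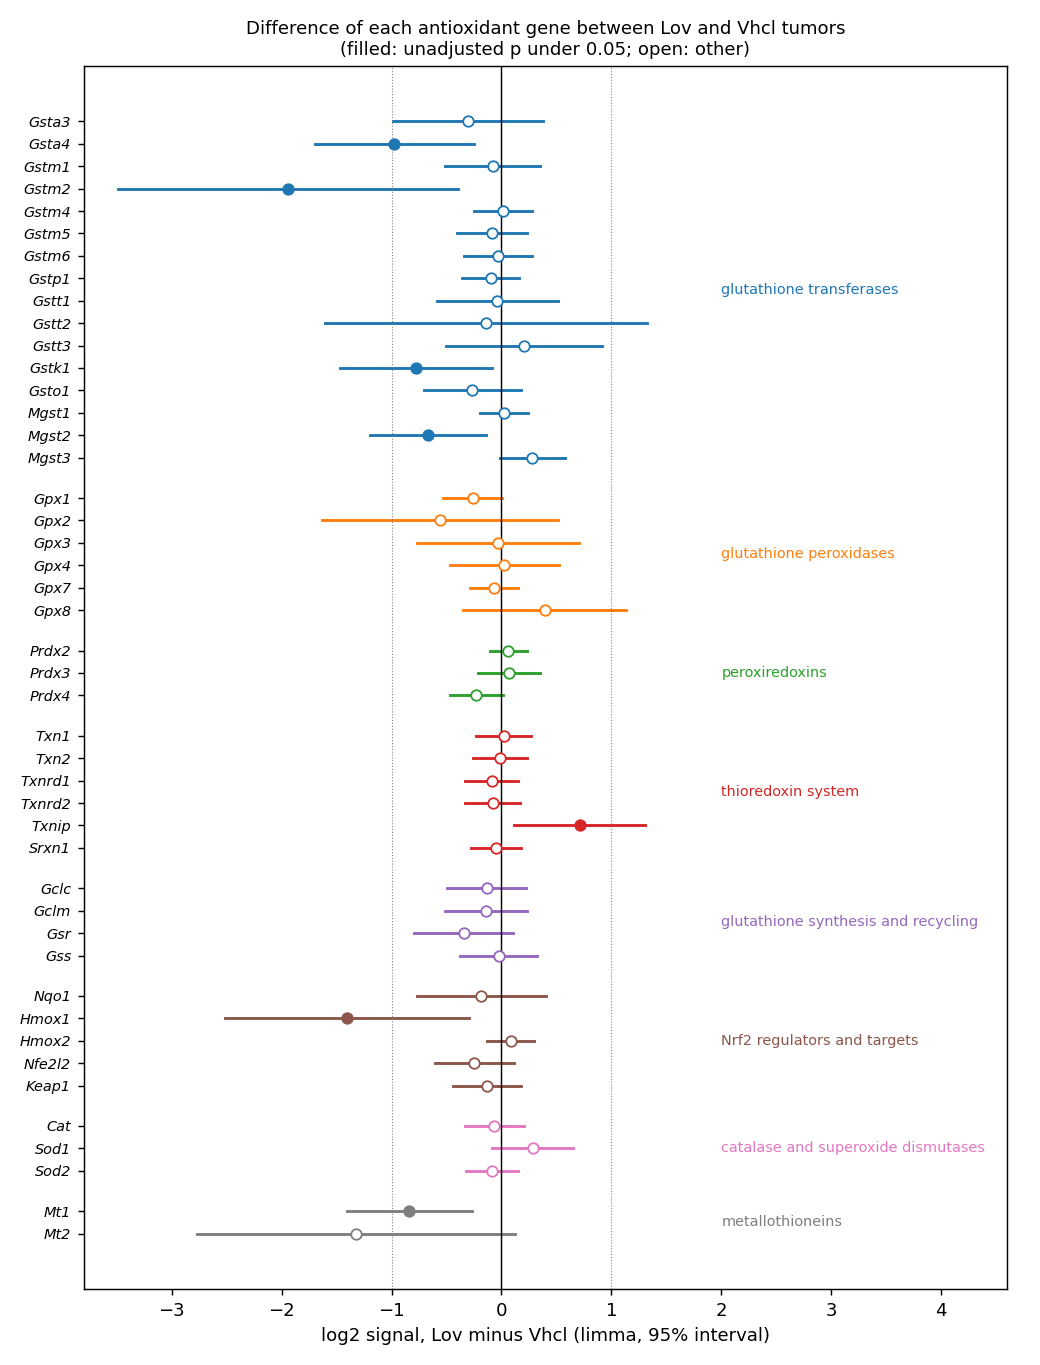
Log2 signal in Lov tumors minus that in Vhcl tumors for the 45 genes, grouped by family, with 95% intervals from limma; filled points have an unadjusted p under 0.05. Filled points left of 0 are 4 transferases, Hmox1 and Mt1, the filled point right of 0 is Txnip, and intervals are widest for Gstm2, Gstt2 and Mt2.

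The median log2 difference was -0.09 for the 16 transferases, -0.05 for the 6 glutathione peroxidases, 0.06 for the 3 peroxiredoxins and -0.03 for the 6 genes of the thioredoxin system. It was -0.14 for the 4 genes of glutathione synthesis and recycling, -0.18 for the 5 Nrf2 regulators and targets, -0.07 for catalase and the superoxide dismutases, and -1.08 for the 2 metallothioneins. Differences between families were not tested. Of the 38 genes with p of 0.05 or more, 34 had a 95% interval of the difference that lay within 1 log2 unit of 0, and for 20 of them it lay within 0.5.

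Among the transferases, the 2 listed alpha-class genes had negative differences. Gsta2, an alpha-class gene outside the list, had a positive one (0.42, limma p of 0.0271, adjusted p of 0.932, exact permutation p of 0.0794). Its means, 4.77 in Lov and 4.35 in Vhcl, both lie below the medians of the arrays, so its signals were not shown to be above background. Gsta4, whose enzyme conjugates 4-hydroxynonenal, a product of lipid peroxidation, had log2 signals of 7.66, 7.33, 7.67, 7.20 and 6.88 in Lov tumors A19, A48, A50, A55 and AB10, against 9.34, 8.50, 7.36, 8.73 and 7.68 in Vhcl tumors A45, A49, A54, A59 and AB11. Vhcl A45, A49 and A59 lay clearly above every Lov tumor, Vhcl AB11 exceeded the highest Lov tumor by 0.01, and Vhcl A54 lay among the Lov values. The means were 7.35 ± 0.33 in Lov and 8.32 ± 0.80 in Vhcl (SD, n = 5 each), a 1.96-fold lower level (log2 difference -0.97, SE 0.33, limma p = 0.0125, adjusted p = 0.919, exact permutation p = 0.0317, 2-sided). Gsta3, the other listed alpha-class gene, spanned 5.12 to 6.11 in Lov tumors and 5.13 to 7.10 in Vhcl tumors, and its difference of -0.30 did not pass the threshold (95% interval -0.99 to 0.38).

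The mu class held the largest difference of the set and 4 genes near 0. Gstm2, which encodes a cytosolic mu-class transferase, had signals of 5.14, 4.44, 4.04, 4.09 and 3.93 in Lov tumors A19, A48, A50, A55 and AB10, against 8.60, 7.33, 4.37, 6.56 and 4.50 in Vhcl tumors A45, A49, A54, A59 and AB11. The Vhcl tumors fell apart into 3 with a high signal, again A45, A49 and A59, and 2 at the level of the Lov tumors, and no Lov tumor had the high signal. Gstm2 averaged 4.33 ± 0.49 in Lov and 6.27 ± 1.83 in Vhcl (SD, n = 5 each), a 3.85-fold lower signal in Lov (log2 difference -1.94, SE 0.71, limma p = 0.018, adjusted p = 0.928, exact permutation p = 0.0635). With 1 tumor left out in turn the difference ran between -2.42 and -1.36, the smaller value without Vhcl A45. The Lov mean lies below the medians of the arrays (4.97 to 5.05), within the range of the liver markers, so the Lov signals were not shown to be above background and the fold is that of the deposited signals only. The SD of Gstm2 over the 10 tumors exceeded that of 99.8% of all genes. Gstm1, Gstm4, Gstm5 and Gstm6 had log2 differences of -0.08, 0.01, -0.08 and -0.03, and their 95% intervals all lay within -0.51 and 0.35. The mu-class genes are close in sequence, so a probe set of this class may pick up transcripts of a relative. Of the 4 probe sets of Gstm1, 1 with a signal of 4.58 in Lov and 4.42 in Vhcl had all Lov tumors above all Vhcl tumors (0.16), while the probe set of highest signal had the opposite sign.

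**Figure D2:**
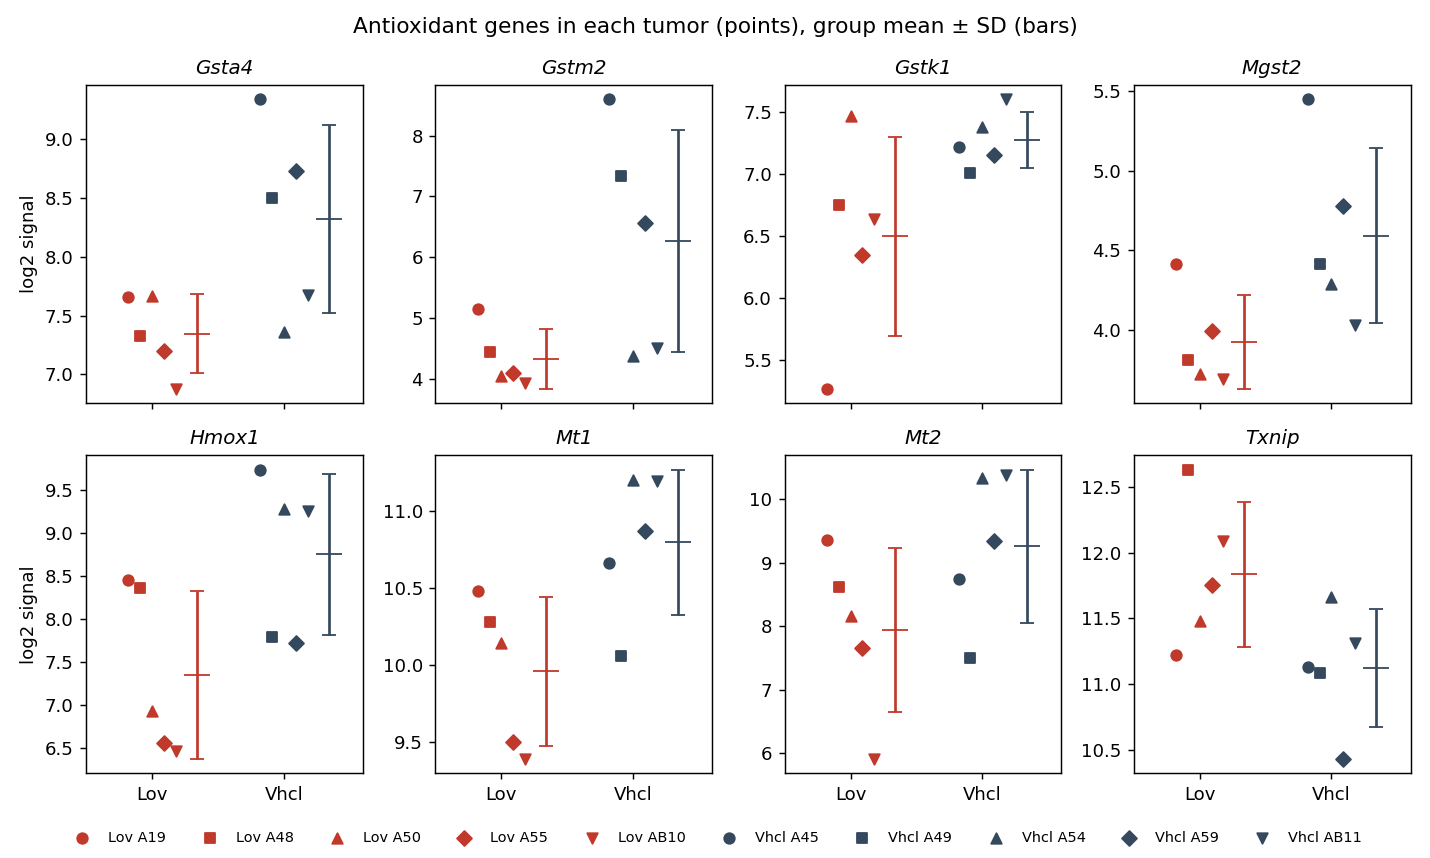
Log2 signal in each Lov (red, left) and Vhcl (dark, right) tumor for 8 antioxidant genes, with marker shape giving the tumor and bars the mean ± SD; the vertical axis differs between panels and does not start at 0. Vhcl A45, A49 and A59 are high for Gsta4 and Gstm2, whereas Vhcl A54 and AB11 are highest for Mt1 and Mt2.

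Gstk1, a transferase of mitochondria and peroxisomes, had signals of 5.27, 6.75, 7.47, 6.35 and 6.64 in Lov tumors A19, A48, A50, A55 and AB10, against 7.22, 7.01, 7.38, 7.15 and 7.60 in Vhcl tumors A45, A49, A54, A59 and AB11. Here the spread was among the Lov tumors, with A19 far below the rest and A50 inside the Vhcl range. The means were 6.50 ± 0.80 in Lov and 7.27 ± 0.23 in Vhcl (SD, n = 5 each), with a log2 difference of -0.78 (SE 0.32, p = 0.0311, adjusted p = 0.932, exact permutation p = 0.0476). Without Lov A19 the difference was -0.47, and without Lov A55, Vhcl A54 or Vhcl AB11 the p was 0.0598, 0.0574 or 0.068.

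The microsomal transferases are membrane proteins of the endoplasmic reticulum and mitochondria. Mgst2, which can also form leukotriene C4, had low signals of 4.41, 3.81, 3.72, 3.99 and 3.69 in Lov tumors A19, A48, A50, A55 and AB10, against 5.45, 4.41, 4.29, 4.78 and 4.03 in Vhcl tumors A45, A49, A54, A59 and AB11. Vhcl A45 and A59 lay above all Lov tumors, Vhcl A49 was level with Lov A19, and Vhcl A54 and AB11 lay within the Lov range. The log2 difference was -0.67 (SE 0.24, p = 0.0179, adjusted p = 0.928, exact permutation p = 0.0397), with means of 3.92 ± 0.30 in Lov and 4.59 ± 0.55 in Vhcl (SD, n = 5 each), and both means lie below the medians of the arrays. Mgst1, the transferase gene with the brightest probe set, was level across the tumors, with 12.50, 12.68, 12.75, 12.79 and 12.85 in Lov tumors A19, A48, A50, A55 and AB10 and 12.61, 12.91, 12.62, 12.72 and 12.60 in Vhcl tumors A45, A49, A54, A59 and AB11. Its difference was 0.02 (SE 0.10, p = 0.828, adjusted p = 0.998, exact permutation p = 0.802), with a 95% interval of -0.19 to 0.24, and means of 12.71 ± 0.13 in Lov and 12.69 ± 0.13 in Vhcl (SD, n = 5 each). The sign of this value turned with a further quantile normalization and in other fits. Mgst3 averaged 8.36 ± 0.15 in Lov and 8.08 ± 0.27 in Vhcl (SD, n = 5 each), a difference of 0.28 (limma p = 0.0607, exact permutation p = 0.0794) whose sign was the opposite of that of its dimmer probe set (-0.18).

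All 3 theta-class genes had a smaller SD among Lov tumors than among Vhcl tumors, as had 59.5% of all genes. Gstt1 spanned 9.03 to 9.17 in Lov tumors (SD 0.0545) and 8.25 to 10.02 in Vhcl tumors (SD 0.648). Gstt2 lay between 6.15 and 7.16 in Lov tumors (SD 0.419), against 8.77, 7.59, 7.38, 4.11 and 6.53 in Vhcl tumors A45, A49, A54, A59 and AB11 (SD 1.74). Gstt3 lay between 7.78 and 8.61 in Lov tumors (SD 0.327) and between 6.54 and 8.53 in Vhcl tumors (SD 0.787). For all 3 genes Vhcl A59 was the lowest of the 10 tumors, and for all 3 Vhcl A45 was the highest Vhcl tumor. Their log2 differences were -0.04, -0.14 and 0.21, and the interval for Gstt2, -1.60 to 1.32, excludes neither a 2-fold lower nor a 2-fold higher mean. The array of Vhcl A59 had the largest 3′ excess of beta-actin (1.35, against 0.67 to 1.20 in the other tumors). On the first principal component of the arrays (23.0% of the variance) it lay at -65.3, against -19.8 to 32.3 in the others. Whether RNA or array quality had a part in its values was not tested. Gstp1, the pi-class gene, and Gsto1, the omega-class gene, had differences of -0.10 and -0.26 with p of 0.429 and 0.217.

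No measured glutathione peroxidase gene passed the unadjusted threshold. Gpx1, the cytosolic glutathione peroxidase, had signals of 11.55, 11.48, 11.43, 11.49 and 11.36 in Lov tumors A19, A48, A50, A55 and AB10, against 11.94, 11.85, 11.60, 11.90 and 11.32 in Vhcl tumors A45, A49, A54, A59 and AB11. 4 of the 5 Vhcl tumors lay above all Lov tumors, and Vhcl AB11 lay below them. The difference was -0.26 (SE 0.12, p = 0.0562, adjusted p = 0.953, exact permutation p = 0.0873), with means of 11.46 ± 0.07 in Lov and 11.72 ± 0.26 in Vhcl (SD, n = 5 each), and without Vhcl AB11 it was -0.36 with a limma p of 0.00443. Gpx2, known from the lining of the gut, was at 5.77 to 6.51 in Lov tumors and at 5.45 to 6.72 in all Vhcl tumors other than A59, where it reached 8.66. Gpx4, which reduces lipid hydroperoxides in membranes and guards against ferroptosis, was at 11.41 to 11.76 in Lov tumors and at 10.60 in Vhcl A59, against 11.60 to 12.07 in the other Vhcl tumors. Its difference was 0.03 (95% interval -0.47 to 0.52), and its other probe set had the opposite sign. The secreted enzyme gene Gpx3 and the endoplasmic reticulum members Gpx7 and Gpx8 had differences of -0.03, -0.07 and 0.39 with p of 0.935, 0.494 and 0.271. Gpx7 was dim, at 4.59 to 4.91 in Lov and 4.63 to 4.95 in Vhcl tumors, below the medians of the arrays.

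Prdx2, a cytosolic peroxiredoxin, had the narrowest spread of the set, with 10.97, 10.92, 11.06, 11.07 and 10.93 in Lov tumors A19, A48, A50, A55 and AB10 and 10.99, 10.88, 10.93, 10.90 and 10.95 in Vhcl tumors A45, A49, A54, A59 and AB11. Only 0.275% of all genes varied less over the 10 tumors. Its difference of 0.06 (SE 0.08, p = 0.451, adjusted p = 0.988, exact permutation p = 0.183) had a 95% interval of -0.11 to 0.23, and the means were 10.99 ± 0.07 in Lov and 10.93 ± 0.04 in Vhcl (SD, n = 5 each). The mitochondrial Prdx3 differed by 0.07 (limma p = 0.61, exact permutation p = 0.619). Prdx4, the peroxiredoxin of the endoplasmic reticulum, averaged 10.40 ± 0.13 in Lov and 10.63 ± 0.19 in Vhcl (SD, n = 5 each), a difference of -0.23 (limma p = 0.0614, exact permutation p = 0.0476), and the 3 dimmer probe sets of the gene had differences of -0.41, -0.37 and -0.32, of which the last 2 had a limma p of 0.0252 and 0.0251. None of these 3 peroxiredoxins passed the unadjusted threshold. The 5 probe sets annotated to both Prdx1 and Gm21399, which cannot be assigned to either gene, had positive differences of 0.25 to 0.36, and 3 of the 5 had a limma p of 0.0161, 0.0335 and 0.0417.

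In the thioredoxin system only the inhibitor differed at the unadjusted threshold. Txnip, whose protein binds reduced thioredoxin and limits glucose uptake, had signals of 11.22, 12.63, 11.48, 11.75 and 12.09 in Lov tumors A19, A48, A50, A55 and AB10, against 11.13, 11.08, 11.66, 10.43 and 11.31 in Vhcl tumors A45, A49, A54, A59 and AB11. Lov A48, A55 and AB10 lay above every Vhcl tumor, and Lov A19 and A50 within the Vhcl range. Txnip averaged 11.83 ± 0.55 in Lov and 11.12 ± 0.45 in Vhcl (SD, n = 5 each), 1.64-fold higher in Lov (log2 difference 0.71, SE 0.27, p = 0.0233, adjusted p = 0.928, exact permutation p = 0.0635). Its other probe set had a difference of 0.84 (limma p = 0.0506, exact permutation p = 0.103). Leaving out Lov A48, Lov AB10 or Vhcl A59 gave 0.51, 0.65 or 0.54 with p of 0.0592, 0.0544 or 0.0589. Thioredoxin itself was steady: Txn1 lay at 11.23 to 11.47 in Lov and 11.02 to 11.57 in Vhcl tumors, and the mitochondrial Txn2 at 8.33 to 8.79 in Lov and 8.40 to 8.83 in Vhcl tumors. The reductases Txnrd1 and Txnrd2 and the sulfiredoxin Srxn1, which repairs overoxidized peroxiredoxins, differed by -0.09, -0.08 and -0.05. All dimmer probe sets of Txnrd2 had the opposite sign. Those of Txnrd1 went both ways (-0.12 and 0.22), as did those of Srxn1 (-0.036, 0.036 and -0.004). The 95% intervals of Txn1, Txn2, Txnrd1, Txnrd2 and Srxn1 all lay within -0.33 and 0.27.

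The 4 genes of glutathione synthesis and recycling had negative differences, none with p under 0.05. Gclm, the modifier subunit of the enzyme that commits glutamate and cysteine to glutathione, had signals of 8.41, 8.66, 8.71, 8.74 and 7.84 in Lov tumors A19, A48, A50, A55 and AB10, against 8.85, 8.61, 8.71, 8.43 and 8.46 in Vhcl tumors A45, A49, A54, A59 and AB11. Lov AB10 was the lowest tumor, and the others overlapped. The difference was -0.14 (SE 0.17, p = 0.425, adjusted p = 0.988, exact permutation p = 0.579), with means of 8.47 ± 0.38 in Lov and 8.61 ± 0.175 in Vhcl (SD, n = 5 each), and without Lov AB10 it was 0.02. Gclc, the catalytic subunit, Gsr, the reductase that recycles oxidized glutathione, and Gss, the synthetase of the final step, had differences of -0.14, -0.34 and -0.02. The same tumor, Lov AB10, was lowest for Gclc (6.15) and Gsr (6.21). The other probe set of Gss had the opposite sign.

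Of the 5 genes grouped as Nrf2 regulators and targets, Hmox1 stood apart. The group includes the constitutive Hmox2, and genes that Nrf2 induces are also found in the other families, so it does not stand for all Nrf2 targets. Hmox1 encodes the inducible heme oxygenase, which breaks down heme to biliverdin, iron and carbon monoxide and which macrophages also express. Its signals were 8.45, 8.35, 6.92, 6.55 and 6.46 in Lov tumors A19, A48, A50, A55 and AB10, against 9.73, 7.78, 9.27, 7.71 and 9.25 in Vhcl tumors A45, A49, A54, A59 and AB11. Lov A50, A55 and AB10 lay below every Vhcl tumor, while Lov A19 and A48 lay above Vhcl A49 and A59. The means were 7.35 ± 0.98 in Lov and 8.75 ± 0.94 in Vhcl (SD, n = 5 each), a 2.64-fold lower level in Lov (log2 difference -1.40, SE 0.51, p = 0.0176, adjusted p = 0.928, exact permutation p = 0.0476). With 1 tumor left out in turn it ran between -1.68 and -1.16 and kept p under 0.05. The summed macrophage level was 10.7 to 11.5 in Lov and 10.8 to 11.2 in Vhcl tumors, but its 6 markers went both ways. Csf1r, the marker of highest signal, had a difference of 0.43 (exact permutation p = 0.0397). The differences of 3 markers were negative, among them Cd68 (-0.40, exact permutation p = 0.286). Cd68 spanned 6.24 to 8.09 in Lov and 7.38 to 8.01 in Vhcl tumors. The part of macrophages in the Hmox1 difference was not tested further. The constitutive Hmox2 had signals of 8.69, 8.80, 8.80, 8.79 and 8.50 in Lov tumors A19, A48, A50, A55 and AB10 and 8.62, 8.67, 8.78, 8.43 and 8.66 in Vhcl tumors A45, A49, A54, A59 and AB11. Its difference was 0.08 (SE 0.10, p = 0.406, adjusted p = 0.988, exact permutation p = 0.302), with means of 8.72 ± 0.13 in Lov and 8.63 ± 0.13 in Vhcl (SD, n = 5 each). Nfe2l2, the Nrf2 gene, differed by -0.25 (95% interval -0.61 to 0.12), and Keap1 by -0.13 with a dimmer probe set of opposite sign. Nqo1, a quinone reductase widely used as a readout of Nrf2, spanned 6.77 to 7.15 in Lov and 5.98 to 7.78 in Vhcl tumors, and its lowest value was in Vhcl A45, the tumor in which Gstm2, Gsta4 and Hmox1 were highest.

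The core of the antioxidant response element, TGACNNNGC on either strand, was looked for in RefSeq promoter windows (GRCm38.p6, 250 bases before to 50 bases after a transcript start), which were at hand for 42 of the 48 genes, 55 windows in all. For genes with several transcripts, such as Mgst2, Txnrd1 and Mt1, a window can lie inside the gene. It was present in 18.2% of these windows and in 12.4% of all 32851 windows. The sites of 6 measured genes are shown because they cover transferases, the thioredoxin system, glutathione synthesis and Nrf2 itself, read in the direction of the core, with the core in capitals:
Gsta3 (core at chr1:21240464-21240472): aggcaTGACATTGCatttt
Gstm5 (core at chr3:107895812-107895820): cccacTGACCACGCggagg
Mgst1 (core at chr6:138140471-138140479): cctccTGACCGTGCcaagc
Txnrd1 (core at chr10:82859114-82859122): cagaaTGACAAAGCaaaaa
Gclm (core at chr3:122245423-122245431): agagtTGACGGTGCgcccg
Nfe2l2 (core at chr2:75704895-75704903): ccaccTGACTCCGCcatgc
All 6 genes had p above 0.05 in the comparison of Lov with Vhcl. The windows of Gstm2, Gstk1, Mgst2, Mt1 and Txnip held no such core, and those of Gsta4 and Hmox1 were not among the 55. The match of letters does not show that a site is used. A window without the core does not show that a gene lacks a site, as bases outside the windows were not searched.

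Catalase and the superoxide dismutases overlapped between the groups. Sod1, the cytosolic copper-zinc superoxide dismutase, had signals of 10.69, 10.59, 10.37, 10.41 and 11.10 in Lov tumors A19, A48, A50, A55 and AB10, against 10.63, 10.43, 10.56, 10.19 and 9.93 in Vhcl tumors A45, A49, A54, A59 and AB11. Lov AB10 was the highest and Vhcl AB11 the lowest. The difference was 0.28 (SE 0.17, p = 0.117, adjusted p = 0.971, exact permutation p = 0.183), with means of 10.63 ± 0.29 in Lov and 10.35 ± 0.29 in Vhcl (SD, n = 5 each), and all 5 probe sets of the gene had a positive sign. Cat, which encodes catalase, and Sod2, the mitochondrial dismutase, differed by -0.07 and -0.09, and both genes have a dimmer probe set of opposite sign.

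The 2 metallothioneins had the most negative family median. Mt1 had signals of 10.48, 10.28, 10.14, 9.50 and 9.39 in Lov tumors A19, A48, A50, A55 and AB10, against 10.66, 10.06, 11.20, 10.87 and 11.19 in Vhcl tumors A45, A49, A54, A59 and AB11. All Vhcl tumors other than A49 lay above every Lov tumor. The means were 9.96 ± 0.49 in Lov and 10.80 ± 0.47 in Vhcl (SD, n = 5 each), a 1.79-fold lower level in Lov (log2 difference -0.84, SE 0.26, p = 0.00768, adjusted p = 0.919, exact permutation p = 0.0397). The probe set behind these values is of a type that may read more than 1 transcript, and the other probe set of Mt1, which is not of that type, was dimmer (5.08 in Lov and 5.34 in Vhcl) with a difference of -0.26 (limma p = 0.067, exact permutation p = 0.0635). Without Lov A55, Vhcl A54 and Vhcl A59 the Mt1 difference was -0.56 with a limma p of 0.107, and without Vhcl A59 and AB11 it was -0.68 with a limma p of 0.0504. Mt2 had signals of 9.36, 8.62, 8.16, 7.66 and 5.91 in Lov tumors A19, A48, A50, A55 and AB10, against 8.74, 7.50, 10.34, 9.34 and 10.39 in Vhcl tumors A45, A49, A54, A59 and AB11. Vhcl A54 and AB11 lay above every Lov tumor, and Lov AB10 lay far below the rest. The means were 7.94 ± 1.30 in Lov and 9.26 ± 1.21 in Vhcl (SD, n = 5 each), and the difference of -1.32 did not pass the threshold (SE 0.66, p = 0.0698, adjusted p = 0.961, exact permutation p = 0.151). Vhcl AB11 and A54, the tumors with the most Mt1 and Mt2, had salivary levels of 15.2 and 7.21 and muscle levels of 8.27 and 11.2. The part of these tissues in the Mt1 and Mt2 signals was not tested beyond the Mt1 fits above.

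Mt1 and Mt2 are neighboring genes, and their signals followed each other closely over the tumors. Pearson's r was 0.938 (permutation p = 5e-05, adjusted p = 0.00025 over 5 pairs) and Spearman's rho was 0.939 (permutation p = 0.00028), n = 10. Without the 2 tumors farthest from the median of Mt1, r was 0.94, and on deviations from the group means it was 0.948. The Mt1 probe set used here is the one that may read more than 1 transcript. A reading of Mt2 transcripts by it therefore cannot be told apart from shared variation, and no correlation was computed for the other Mt1 probe set. The promoters of both genes are shown because their signals varied together. They give the 250 bases before the transcript start of the RefSeq window, which for Mt1 lies inside the gene as its RefSeq bounds have it (chr8:94178883-94180327), with each core of the metal response element (TGCACNC or TGCGCNC, either strand) in capitals:
Mt1 (chr8:94178839-94179088, plus strand): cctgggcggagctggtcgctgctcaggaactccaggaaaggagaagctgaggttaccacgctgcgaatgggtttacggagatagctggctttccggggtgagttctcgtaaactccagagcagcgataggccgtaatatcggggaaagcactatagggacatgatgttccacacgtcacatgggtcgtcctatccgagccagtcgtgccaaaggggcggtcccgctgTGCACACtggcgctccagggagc
Mt2 (chr8:94172368-94172617, plus strand): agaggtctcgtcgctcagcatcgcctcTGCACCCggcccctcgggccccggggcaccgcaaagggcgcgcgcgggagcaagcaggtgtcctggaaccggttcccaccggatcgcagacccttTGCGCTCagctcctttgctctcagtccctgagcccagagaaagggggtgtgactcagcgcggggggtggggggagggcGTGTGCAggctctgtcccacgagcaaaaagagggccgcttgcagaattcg
Including the 50 bases after the start, the Mt2 window held 4 such cores and the Mt1 window 3. Of all 32851 windows 25.7% held at least 1 core and 0.517% held 4 or more, and among the 55 windows of the antioxidant genes 27.3% held at least 1. The Mt2 window also carried the antioxidant core. The core of the hypoxia response element, ACGTG, was in 18.2% of the 55 windows and in 19.6% of all windows.

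**Figure D3:**
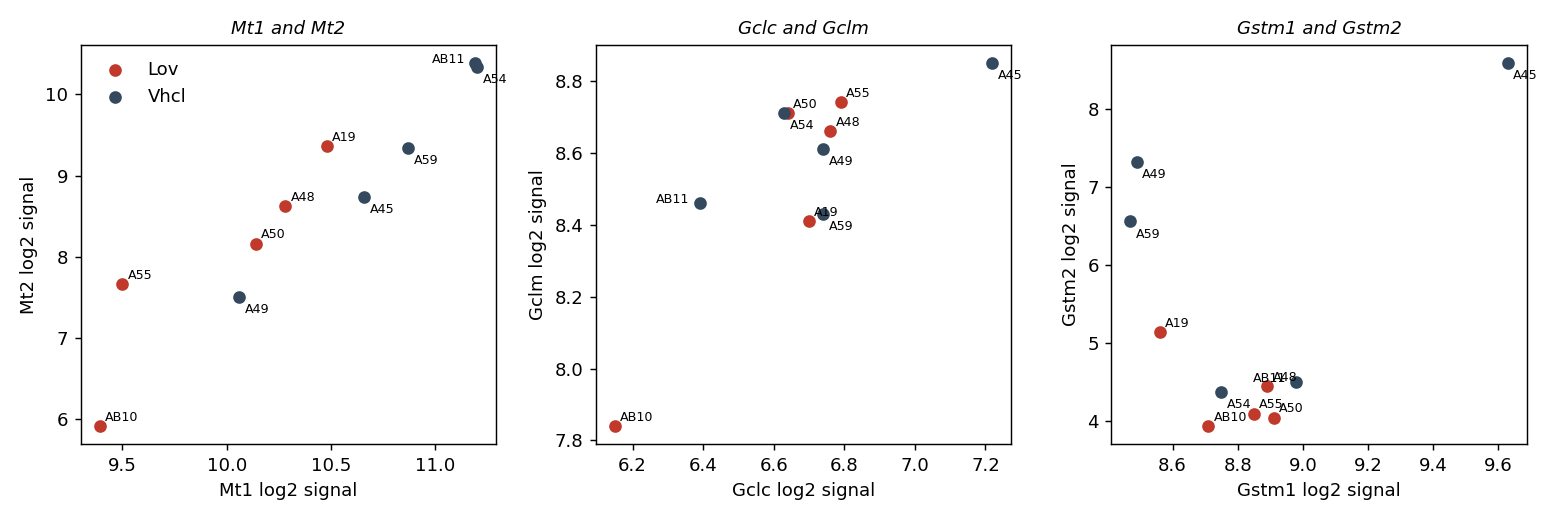
Log2 signals of Mt1 and Mt2, Gclc and Gclm, and Gstm1 and Gstm2 in the same tumors, with Lov tumors in red and Vhcl tumors in dark and tumor names beside the points. The metallothioneins lie along a line (r = 0.938), the extremes of Gclc and Gclm are Lov AB10 and Vhcl A45, and Gstm2 ranges over 3.93 to 8.60 while Gstm1 stays at 8.47 to 9.63.

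Of the other pairs, the 2 subunits of the glutamate-cysteine ligase, Gclc and Gclm, had r = 0.805 (permutation p = 0.0079, adjusted p = 0.0197) and rho = 0.61 (permutation p = 0.0676), n = 10. Without Lov AB10 and Vhcl A45 r was 0.303, so that the relation rested on those tumors. Gstm1 and Gstm2 (r = 0.302, rho = -0.103), Nqo1 and Gclm (r = -0.205, rho = -0.315) and Txnrd1 and Srxn1 (r = 0.06, rho = 0.274) had adjusted permutation p of 0.55 or more for both measures. Without the 2 tumors farthest from the median of the first gene, r was -0.73 for Gstm1 and Gstm2 and 0.328 for Nqo1 and Gclm, both of the opposite sign, and 0.0937 for Txnrd1 and Srxn1. All genes of a pair were read from the same arrays.

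The median SD over the 10 tumors was 0.286 for the antioxidant genes and 0.217 for all genes. Of the 45 genes, 16 had an SD over the 10 tumors above that of 90% of all genes, a measure that includes the difference between the groups, and 40 had a mean signal above the median of all genes. The median SD within the group was 0.184 in Lov and 0.302 in Vhcl for the 45 genes, and 0.192 in Lov and 0.219 in Vhcl for all genes, and the Lov SD was the smaller for 62.2% of the 45 genes and 59.5% of all genes. Vhcl A45 was the highest of the 10 tumors for 17 genes, Lov AB10 was the lowest for 16 and Vhcl A59, whose array had the largest 3′ excess of beta-actin, for 12. The mean deviation from the gene means over the 16 transferases was 0.79 in Vhcl A45 and lay between -0.25 and 0.26 in the other tumors. For the 2 metallothioneins it was lowest in Lov AB10 (-1.84) and highest in Vhcl AB11 (1.30) and A54 (1.28). For the thioredoxin system it stayed between -0.14 and 0.22 in all 10 tumors.

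**Figure D4:**
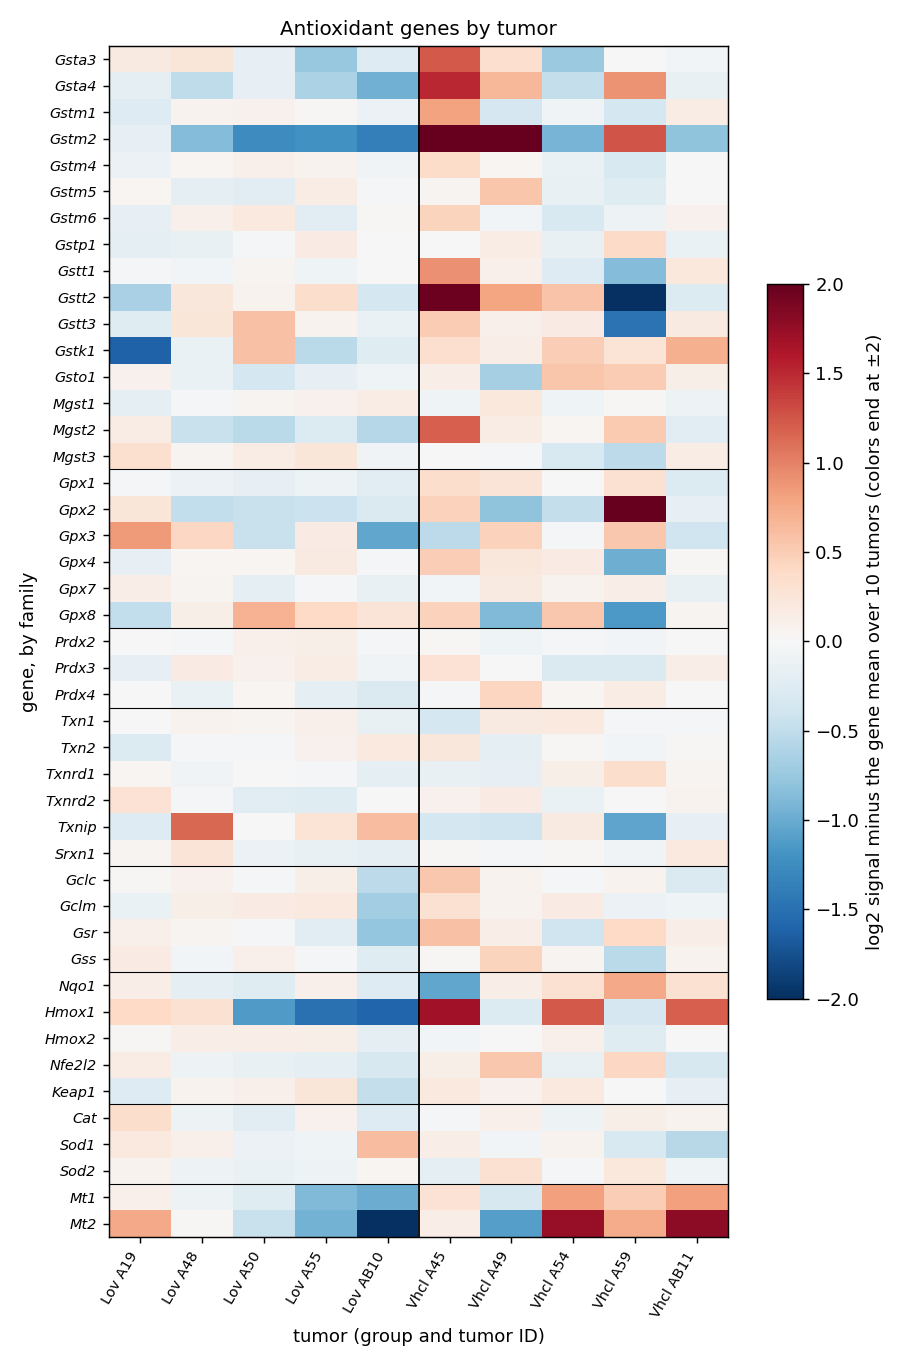
Log2 signal of the 45 genes, by family, in 5 Lov tumors (left) and 5 Vhcl tumors (right), as the difference from the mean of the gene over the 10 tumors; colors end at 2 units from 0. Vhcl A45 is red for most transferases, Lov AB10 is blue for Hmox1, Mt1 and Mt2, and the peroxiredoxin and thioredoxin rows are pale other than Txnip.

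A list of 52 further genes of glutathione, redox and Nrf2 biology, 47 of them measured, had 4 genes (8.51%) that were lower, against 2.75% of all genes, and 3 (6.38%) that were higher, against 3.5% of all genes, by the same unadjusted threshold, a median log2 difference of -0.02 and 0 genes past an FDR of 0.05. Ephx1, the microsomal epoxide hydrolase, averaged 8.996 ± 0.294 in Lov and 9.54 ± 0.30 in Vhcl (SD, n = 5 each), a difference of -0.54 (limma p = 0.00851, exact permutation p = 0.0238). Chac1, which degrades glutathione, averaged 5.30 ± 0.37 in Lov and 5.89 ± 0.39 in Vhcl (SD, n = 5 each), a difference of -0.59 (limma p = 0.017, exact permutation p = 0.0397). Maff, a small Maf partner of Nrf2, averaged 5.85 ± 0.52 in Lov and 6.44 ± 0.15 in Vhcl (SD, n = 5 each), a difference of -0.59 (limma p = 0.0174, exact permutation p = 0.0476), with Lov A19 at 6.74 and the other Lov tumors at 5.48 to 5.87. Bach1, a repressor that competes with Nrf2, was the other gene that was lower (-0.47, limma p = 0.0303, exact permutation p = 0.0635). It is named here because it completes the count. On the other side, the mitochondrial methionine sulfoxide reductase Msrb2, Gsta2 and Park7, which encodes DJ-1, differed by 0.40, 0.42 and 0.44. Their limma p were 0.0189, 0.0271 and 0.045, and their exact permutation p were 0.0238, 0.0794 and 0.0794.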

How the data were processed

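RNA of 5 Lov-treated and 5 Vhcl-treated whole mammary tumors had been hybridized to Affymetrix MG430 v2.0 arrays, 1 per tumor. The authors deposited log2 signals, which they had summarized and normalized by Robust Multi-array Analysis (RMA) with the affy package, per the submitters' processing notes; the sources used here give no version. No further scaling was applied. RMA draws low signals together, so fold changes of dim probe sets are understated.

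The 64 control probe sets were left out and 45037 were compared by the linear model and empirical Bayes statistics of limma 3.58.1 under R 4.3.3 (prior degrees of freedom 3.61), with p-values adjusted by Benjamini-Hochberg across the whole array. Of these, 34945 carried 1 gene symbol in the platform annotation, 932 more than 1 and 9160 none. By gene ID, 34741 of the 34945 matched the RefSeq gene table (GRCm38.p6), and together they stood for 18193 genes. Exact permutation tests, 2-sided, enumerated all 252 assignments of the tumors (smallest p 0.00794). Permutation tests of correlations drew 100000 resamples. Arrays have no sequencing depth, and their number limits the precision. P-values of the group comparison set the difference against the spread between these tumors, which limma moderates with a prior drawn from all probe sets.

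All listed genes were accounted for. Those with p under 0.05, those without overlap and the gene of highest signal in each family were described in full, and of the further genes the 3 of lowest p in each direction. The genes, lists and tests were chosen with earlier results of these data known. Sequences are from RefSeq. The procedure was tested on simulated data. Alternatives were a trended, robust prior, Student's t-test without moderation, median centering, quantile normalization and a covariate for the tumor ID prefix or for the 3′ excess of beta-actin. Others were averaging the probe sets of a gene, probe sets not marked as shared, probe sets above the median signal and leaving out tumors.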

Additional observations from a re-analysis of the deposited data

Results flagged for a closer look

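In 90 sets of 5 tumors (45 genes in 2 groups), 3 values lay apart from the rest of their group by Dixon's criterion, which chance meets in about 1 set in 20. Gstt3 was at 6.54 in Vhcl A59, against 8.13 in the nearest Vhcl tumor. Gpx2 was at 6.51 in Lov A19, against 5.98 in the nearest Lov tumor. Gclc was at 6.15 in Lov AB10, against 6.64 in the nearest Lov tumor.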

How the results depend on the processing

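No antioxidant gene passed an FDR of 0.05 in any of the 22 alternatives. Of these, leaving out the salivary-rich Vhcl A59 and AB11, and the muscle-rich Lov A55, Vhcl A54 and Vhcl A59, was chosen after seeing the data. The cause of the changes below was not tested. The 6 genes lower in Lov at an unadjusted p under 0.05 numbered 4 to 8 in the other alternatives (5 to 8 with 1 tumor left out) and 3 without the muscle-rich tumors. The share of all genes called by p was not counted in the alternatives, so these counts by p have no background. The 1 higher gene became 0 with the t-test without moderation, with the beta-actin covariate and without the muscle-rich or the salivary-rich tumors. The count became 2 with the mean of all probe sets. It was 0 to 2 with 1 tumor left out, 0 without Lov A48 or Vhcl A59 and 2 without Vhcl AB11. The 2 genes at 2-fold with p under 0.02 became 0 with the t-test without moderation and with the trended, robust prior. They became 1 with the tumor ID prefix and 4 without the salivary-rich tumors. They numbered 0 to 3 with 1 tumor left out, 0 without Lov A55, Lov AB10 or Vhcl A45 and 1 without Lov A48 or Vhcl A59. The 0 of 45 genes without overlap (0.693% of all genes) became 2 without Lov A19 and Vhcl AB11 (5.13% of all genes), 2 without the salivary-rich tumors (4.63%), 3 without the muscle-rich tumors (3.39%) and 0 to 2 with 1 tumor left out (0.989% to 2.61%): 1 without Lov A19, Lov A50 or Vhcl AB11 and 2 without Vhcl A49 or A54. The share of all genes without overlap was thus higher with fewer tumors too. Of 283 values of the 13 genes described in full, 250 kept direction and side of the threshold, 19 lost p under 0.05, 8 gained it and 6 changed sign. With 1 tumor left out, Gclm ran between -0.207 and 0.018 and Mgst1 between -0.012 and 0.0765. The 6 were Gclm without Lov AB10 (0.018) and Mgst1 with the beta-actin covariate (-0.0042), quantile normalization (-0.0028), without Lov AB10 (-0.012), without Vhcl AB11 (-0.001) and without the muscle-rich tumors (-0.0117). Gstk1 without Lov A19 and Vhcl AB11 was -0.39 with a limma p of 0.103, and Gstm2 had a p of 0.0509 with the t-test without moderation. No paired analysis was possible because the groups share no tumor numbers. The number of arrays limits what can be told apart, and Mgst2, Gstm6, Gpx7 and, in Lov tumors, Gstm2 are dim.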
